A study of Mus musculus with 8 samples.

Results

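The 36 genes described here encode the machinery of mitosis and of its G2/M entry, and they were followed in pancreatic islets of young mice with and without Cre in a line that carries an ATF4 transgene. They were taken from a list of symbols by matching each symbol to an Ensembl mouse identifier in the count tables. All 36 symbols matched, out of 55414 identifiers, and all 36 passed the filter on low counts that left 20509 genes for testing. The islet RNA gave 8 libraries, of which 4 carry the label TG and 4 the label WT. All mice were C57BL/6, were 5 weeks old and carried ATF4 TG(+/-). The TG group also carried Ins2 cre(+/-), which places Cre under control of the gene for insulin 2, while the WT group was Ins2 cre(-/-). The WT libraries therefore come from mice that hold the ATF4 transgene without Cre. No group with Cre alone was analysed here, so an effect of Cre and one of the transgene cannot be told apart. The labels do not say whether the libraries of a group came from separate animals or pools, so the p-values reflect the spread between libraries, which may be technical.

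Entry into mitosis is driven by CDK1 bound to the A- and B-type cyclins, and exit by the anaphase-promoting complex, which marks the cyclins for destruction. Between these steps the chromosomes are condensed, attached to microtubules at kinetochores, checked for correct attachment and pulled apart by a spindle of motors and microtubule-binding proteins. Beta cells of young mice still divide, and genes of this set are transcribed late in the cell cycle, largely through the MuvB complex with B-MYB and FOXM1, so that in a tissue their mRNA mostly comes from the cells that are dividing.

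The gene counts summed to between 16521087 and 22499999 per library, so that 3 counts, the smallest level taken as distinct from 0, were worth 0.133 to 0.182 CPM, the count scaled to library size. Atf4 itself, the gene behind the transgene's name, was lower in the libraries labelled TG, at 261 ± 19.8 CPM against 352 ± 21.1 CPM in WT (SD, n = 4 each; adjusted p = 0.00226, edgeR quasi-likelihood test with Benjamini-Hochberg adjustment). Whether reads of the transgene are counted under this gene was not tested, so every direction below is that of the labels. All 10 beta-cell markers of the islet list were detected and tested, and markers of several cell types differed between the groups. The summed level of those 10 markers was 50093 to 64198 CPM in TG and 103120 to 123756 CPM in WT. The 10 endothelial markers summed to 1197 to 1252 CPM in TG and 490 to 872 CPM in WT, and the 10 markers of stellate cells, fibroblasts and mural cells to 3348 to 6485 CPM and 844 to 2798 CPM. The sums of leukocyte markers (181 to 453 CPM against 105 to 164 CPM) and duct markers (758 to 1037 CPM against 374 to 428 CPM) were also higher in every TG library than in any WT library. So was that of Schwann-cell markers (81.1 to 99.2 CPM against 50.2 to 68.1 CPM). Single markers differed, since 2 of 9 tested leukocyte markers and 1 of 7 duct markers had a lower mean in TG. Acinar markers overlapped, at 7047 to 44998 CPM in TG and 1388 to 13636 CPM in WT, as did alpha-cell markers, at 26122 to 45233 CPM and 17717 to 33742 CPM. No marker of these lists was at 0 in every library. Fewer cells of a type and less RNA per cell cannot be told apart in such bulk libraries. The part of this difference in cell markers in the results below was not tested except by fits with a vascular and stromal term or an acinar term.

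Of the 36 genes, 35 had a lower mean in TG than in WT and 24 fell, at an adjusted p under 0.05 in edgeR's quasi-likelihood test with Benjamini-Hochberg adjustment over all 20509 genes. Over all genes tested, 8.06% were called lower. Ndc80, which encodes a core subunit of the outer kinetochore, was the 1 gene of the set called higher, where 12.1% of all genes were. The remaining 11 did not pass, so 25 were called in either direction, beside 20.1% of all genes. The median log2 fold change (TG minus WT) of the set was −0.91, beside −0.00186 over all genes, whose quartiles were −0.24 and 0.40. Among the 36, 14 were called lower by at least 2-fold, which 1.46% of all genes were. In 23 of the 36, every TG library lay below every WT library, a separation that 9.94% of all genes showed, and in Ndc80 every TG library lay above, as in 12.6%.

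**Figure D1:**
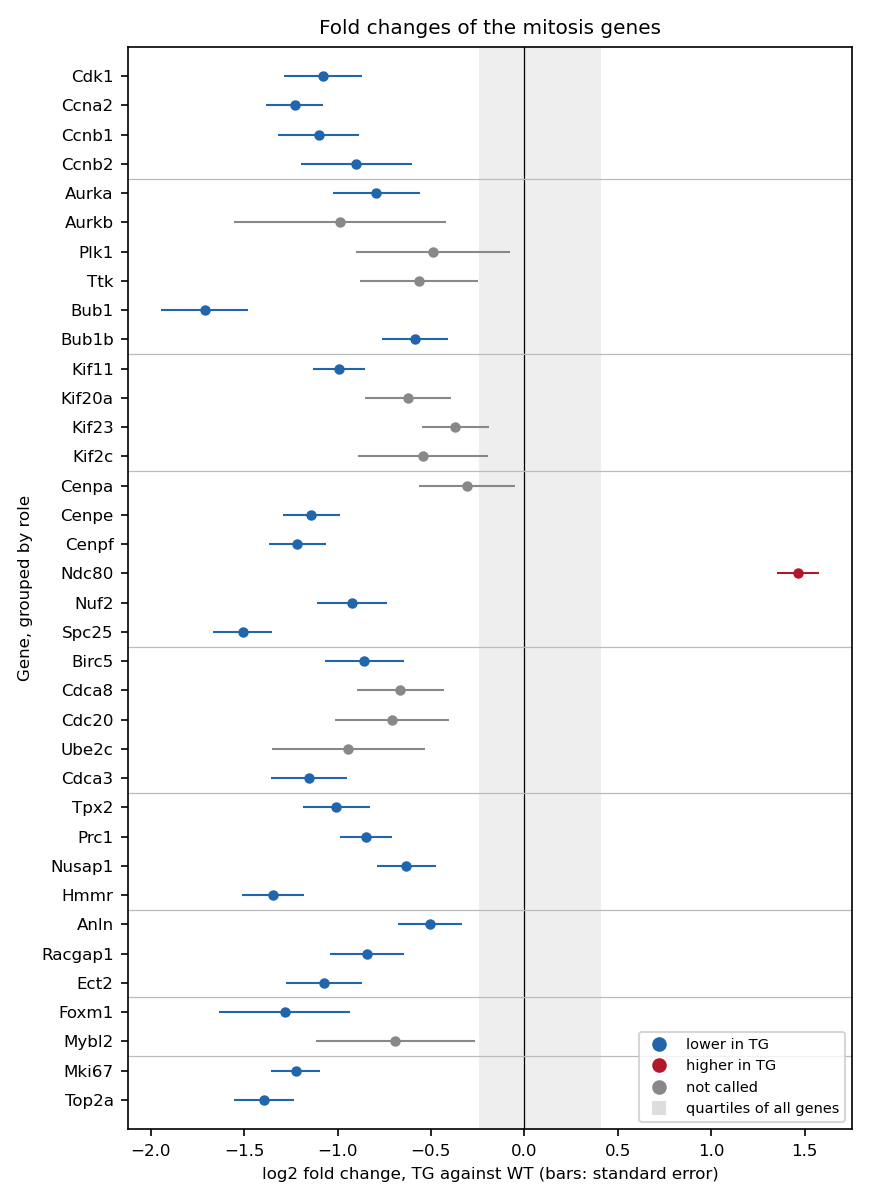
Log2 fold change (TG minus WT) of each of the 36 genes by role, with its standard error as the bar, blue for genes called lower, red for called higher and grey for not called in edgeR, over a grey band between the quartiles of all genes. All points but that of Ndc80, at 1.46, lie left of 0, down to −1.71 for Bub1.

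The 2 genes of the set whose proteins are most used to find dividing cells both fell. Mki67, which coats chromosomes in mitosis and gives the Ki-67 antigen, measured 73.6, 63.2, 68.4 and 65.4 CPM in TG replicates 1 to 4 and 144, 173, 197 and 118 CPM in WT replicates 1 to 4, the order used for all values below. The lowest WT library was above the highest TG library, and the TG libraries were the closer together. Its mean was 2.34 times lower in TG (log2 fold change −1.22, standard error 0.131, adjusted p = 2.42e-05, edgeR). Top2a, the topoisomerase that untangles sister chromatids, measured 58.7, 34.7, 46.3 and 44.7 CPM in TG and 117, 127, 145 and 94.5 CPM in WT. Here too the groups did not overlap, and the mean was 2.63 times lower in TG (−1.39, standard error 0.161, adjusted p = 0.000106, edgeR).

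All 4 genes of the CDK1 and cyclin group fell, with a median log2 fold change of −1.09. Ccna2, the cyclin that acts from S phase to early mitosis, measured 8.80, 7.82, 10.4 and 9.97 CPM in TG and 17.1, 24.2, 24.5 and 20.8 CPM in WT. The groups were well apart, with a log2 fold change of −1.23 (standard error 0.153, adjusted p = 5.81e-05, edgeR). Cdk1, the mitotic kinase itself, averaged 6.63 ± 1.28 CPM in TG and 14.0 ± 3.70 CPM in WT (−1.08, adjusted p = 0.00194, edgeR), again without overlap. Ccnb1, the B-type cyclin that brings CDK1 into mitosis, averaged 3.05 ± 0.421 CPM and 6.54 ± 1.04 CPM (−1.10, adjusted p = 0.00225, edgeR). Ccnb2, the second B-type cyclin, measured 4.91, 5.25, 6.62 and 1.71 CPM in TG and 8.12, 8.61, 9.72 and 8.25 CPM in WT. It had the smallest change of the group (−0.90, adjusted p = 0.0451, edgeR), and its TG replicate 4 was far below the others. The call for Ccnb2 was lost when TG replicate 1 (−0.92, adjusted p = 0.091), TG replicate 2 (−0.97, 0.0705) or WT replicate 1 (−0.94, 0.0761), 2 (−0.91, 0.0923), 3 (−0.85, 0.0862) or 4 (−0.93, 0.0741) was left out of the edgeR fit.

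**Figure D2:**
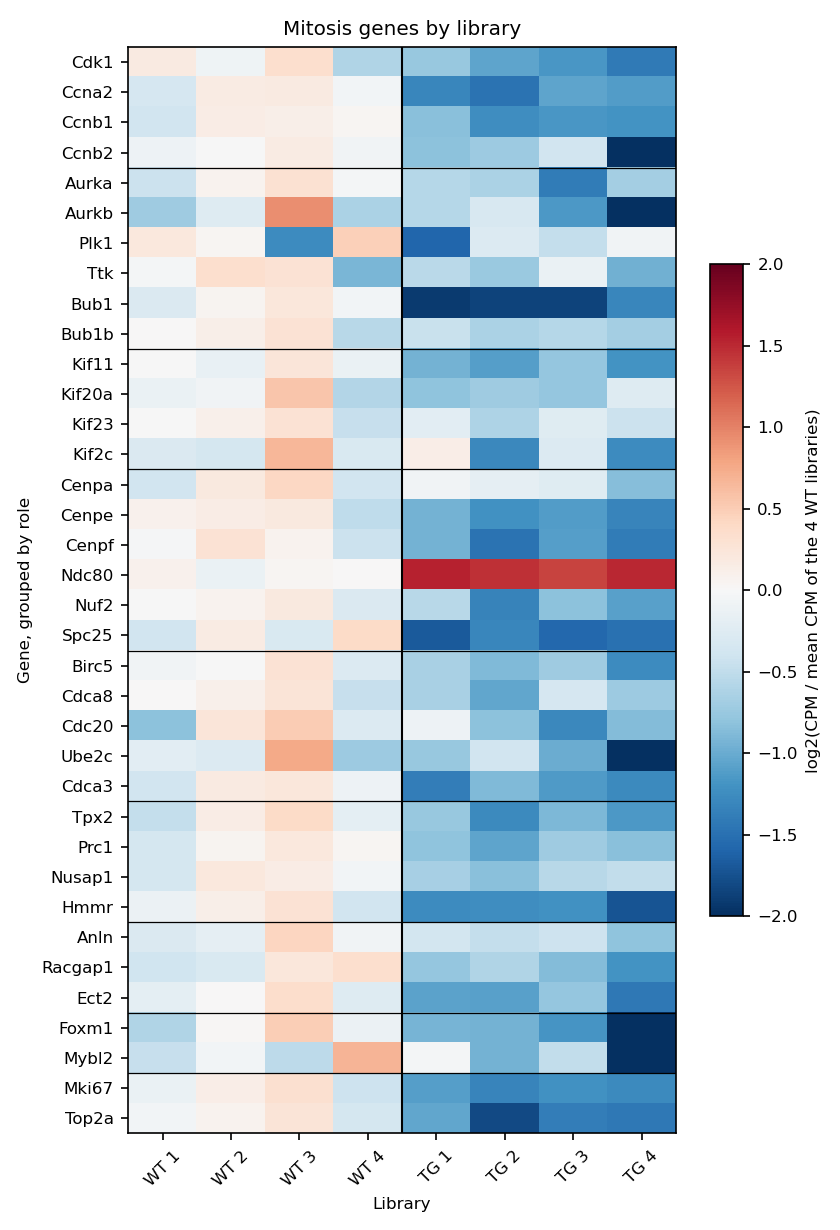
Level of each of the 36 genes in each of the 8 libraries as log2 of its CPM over the mean of the WT libraries, in columns by library and rows by role, with colours saturating at −2 and 2. The TG columns are below 0 for nearly all rows, WT replicate 3 holds the highest WT value in 27 of 36 rows, and Ndc80 is the row with the opposite sign.

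Among the kinases and checkpoint genes, 3 of 6 fell and the median log2 fold change was −0.69. Bub1, the checkpoint kinase that gathers regulators at the centromere, had the largest fall of the 36, from 5.65, 7.19, 8.05 and 6.66 CPM in WT to 1.84, 1.91, 1.90 and 2.79 CPM in TG. That is 3.27 times lower (−1.71, standard error 0.234, adjusted p = 0.000132, edgeR), and the 2 ranges were far apart. Bub1b, which encodes the checkpoint inhibitor BUBR1, was the most abundant of this group and measured 10.5, 9.25, 9.62 and 8.94 CPM in TG and 14.5, 15.5, 17.6 and 9.78 CPM in WT. WT replicate 4 lay within the TG range, and the change was smaller (−0.59, adjusted p = 0.0276, edgeR). Without TG replicate 2 or 3 or WT replicate 1, 2 or 3, its adjusted p in edgeR was 0.0628, 0.0512, 0.0569, 0.0805 and 0.079, with log2 fold changes of −0.57, −0.62, −0.59, −0.55 and −0.48. Aurka, the kinase of the spindle poles, averaged 4.33 ± 1.01 CPM in TG and 7.48 ± 1.53 CPM in WT (−0.79, adjusted p = 0.0251, edgeR). Its call was lost without TG replicate 3 (−0.66, 0.0664), WT replicate 2 (−0.77, 0.0639) or WT replicate 3 (−0.68, 0.0683).

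The other 3 kinases did not pass. Aurkb, the catalytic subunit of the chromosomal passenger complex, measured 2.48, 2.98, 1.68 and 0.285 CPM in TG and 2.27, 3.09, 7.08 and 2.38 CPM in WT (−0.99, adjusted p = 0.271, edgeR). Plk1, the polo-like kinase that acts from mitotic entry to cytokinesis, measured 0.702, 1.73, 1.501 and 1.99 CPM in TG and 2.42, 2.16, 0.880 and 2.93 CPM in WT (−0.49, adjusted p = 0.461, edgeR). Ttk, also called MPS1, which starts the checkpoint signal, measured 2.21, 1.91, 2.91 and 1.65 CPM in TG and 3.14, 4.05, 3.93 and 1.71 CPM in WT (−0.56, adjusted p = 0.242, edgeR). The groups overlapped for all 3, and the libraries of Aurkb held between 5 and 153 reads. With no filter on low counts, Aurkb was called lower (−1.01, adjusted p = 0.0261, edgeR).

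Of the 4 kinesins, Kif11 alone fell. Kif11, the motor that pushes the spindle poles apart, measured 12.5, 11.2, 14.0 and 10.5 CPM in TG and 24.0, 21.6, 28.4 and 21.99 CPM in WT. That is 1.99 times lower with a wide gap between the groups (−0.99, standard error 0.139, adjusted p = 0.000157, edgeR). Kif23, a motor of the central spindle, measured 9.93, 7.51, 9.76 and 8.55 CPM in TG and 11.4, 12.3, 14.0 and 8.37 CPM in WT (−0.37, adjusted p = 0.171, edgeR). WT replicate 4 was inside the TG range. Kif20a, which carries the passenger complex to the midzone, measured 5.67, 6.05, 5.78 and 8.32 CPM in TG and 9.03, 9.40, 14.6 and 6.598 CPM in WT (−0.62, adjusted p = 0.0714, edgeR). It overlapped through TG replicate 4 and WT replicate 4, and passed when either was left out (−0.79, adjusted p = 0.0281, and −0.78, adjusted p = 0.0271, edgeR). With all libraries, Kif20a was also called lower with upper-quartile scaling, no filter on low counts, the acinar term and in DESeq2. Kif2c, which takes microtubules apart at centromeres, measured 4.75, 1.78, 3.62 and 1.82 CPM in TG and 3.57, 3.41, 6.90 and 3.54 CPM in WT (−0.54, adjusted p = 0.316, edgeR), with wide overlap. Whether the change in Kif11 differed from that of the other kinesins was not tested.

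The centromere and kinetochore genes held both the largest level and the only rise. Cenpf, a large protein of the outer kinetochore, averaged 33.1 ± 5.801 CPM in TG and 76.7 ± 15.1 CPM in WT (−1.21, adjusted p = 0.000128, edgeR). Cenpe, a motor that brings chromosomes to the spindle's equator, averaged 13.7 ± 1.55 CPM and 30.2 ± 6.11 CPM (−1.14, adjusted p = 0.000112, edgeR). For both genes all TG libraries were below all WT libraries. Cenpa, the histone H3 variant that marks centromeres, measured 4.64, 4.27, 4.11 and 2.68 CPM in TG and 3.72, 5.53, 6.43 and 3.73 CPM in WT, with overlap and the change nearest 0 of the whole set (−0.31, adjusted p = 0.461, edgeR).

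The NDC80 complex is a rod of 4 proteins that links the kinetochore to the microtubule, NDC80 and NUF2 at the microtubule end and SPC24 and SPC25 at the centromere end, and its genes did not move together. Ndc80 measured 32.9, 31.0, 28.8 and 32.2 CPM in TG and 11.98, 10.3, 11.6 and 11.4 CPM in WT. Every TG library was above every WT library, and both groups were tight. The mean was 2.76 times higher in TG (1.46, standard error 0.113, adjusted p = 5.02e-07, edgeR), the lowest adjusted p of the set. Nuf2, its direct partner, measured 9.07, 5.29, 7.59 and 6.27 CPM in TG and 13.3, 14.0, 15.2 and 10.9 CPM in WT, a fall without overlap (−0.92, adjusted p = 0.00263, edgeR). Per library, the CPM of Ndc80 was 3.62, 5.86, 3.79 and 5.14 times that of Nuf2 in TG and 0.902, 0.734, 0.763 and 1.04 times in WT. The ratio of the pair therefore separated the groups with no overlap, although its direction follows from the calls of the 2 genes. Nuf2 and Spc24 are given here because of the values of Ndc80 and Spc25.

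Spc25 was the most abundant gene of the set by far, at 272, 352, 293 and 309 CPM in TG and 670.2, 977, 709 and 1131 CPM in WT. The WT libraries spread more widely and all lay above the TG libraries, with a mean 2.84 times higher (TG minus WT −1.51, standard error 0.160, adjusted p = 5.45e-05, edgeR). Per kilobase of exon, Spc25 stood at 96.1 CPM in TG and 273 CPM in WT, while Mki67, next in order in WT, stood at 6.73 and 15.7 CPM per kilobase. The other members apart from Top2a and Ndc80 lay between 0.272 and 3.02 CPM per kilobase in TG. Spc24, its partner, from the list of other mitosis genes, measured 10.4, 8.67, 7.20 and 8.26 CPM in TG and 9.90, 17.3, 18.9 and 15.9 CPM in WT (−0.84, adjusted p = 0.00657, edgeR). Spc25 was 26.1, 40.6, 40.7 and 37.4 times as abundant as Spc24 by CPM in TG and 67.7, 56.4, 37.5 and 71.2 times in WT, so that the reads counted under these genes were far from equal in every library.

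Genes beside the members were looked up after these values were seen, in an annotation of an earlier mouse build. Spc25 has its start facing that of G6pc2, which encodes a glucose-6-phosphatase subunit of beta cells, and no exons of the 2 overlap there. G6pc2 fell from 2952 ± 1029 CPM in WT to 1261 ± 271 CPM in TG (−1.23, adjusted p = 0.0153, edgeR). As a percentage of G6pc2, Spc25 was 27.3%, 21.4%, 24.4% and 25.7% in TG and 30.9%, 28.9%, 34.4% and 26.9% in WT. These percentages overlapped at TG replicate 1 and WT replicate 4, whereas the levels of Spc25 did not overlap, and whether all reads counted under Spc25 come from its own mRNA was not tested. On the other side of Spc25, Nostrin was higher in TG (59.1 against 39.5 CPM, 0.58, adjusted p = 0.00206, edgeR). Rhobtb1, whose end faces that of Cdk1, was likewise lower in TG, at 80.8 ± 10.7 against 188 ± 51.4 CPM (−1.22, adjusted p = 0.00259, edgeR). Its part in the level of Cdk1 was not tested. Nearest protein-coding genes of other members called lower went both ways. Rhno1, its start facing that of Foxm1 56 bases away, was lower (−0.58, adjusted p = 0.0233, edgeR). Bbs7, 992 bases from Ccna2, was also lower (−0.35, adjusted p = 0.0291, edgeR). The other examples lie farther off than Bbs7. Slc30a5, next to Ccnb1, was lower (−0.43, adjusted p = 0.00354, edgeR). Igfbp4 (1.42, adjusted p = 0.0333), Bmf (1.16, 0.000709) and Ptpn14 (1.27, 0.00539), with starts facing those of Top2a, Bub1b and Cenpf, were higher in edgeR. The neighbours of Ndc80 did not pass. Smchd1, on the same strand, was at 111 CPM in TG and 108 CPM in WT (0.05, adjusted p = 0.775, edgeR), and Spdya was at 0.966 and 1.002 CPM (−0.06, adjusted p = 0.95, edgeR).

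**Figure D3:**
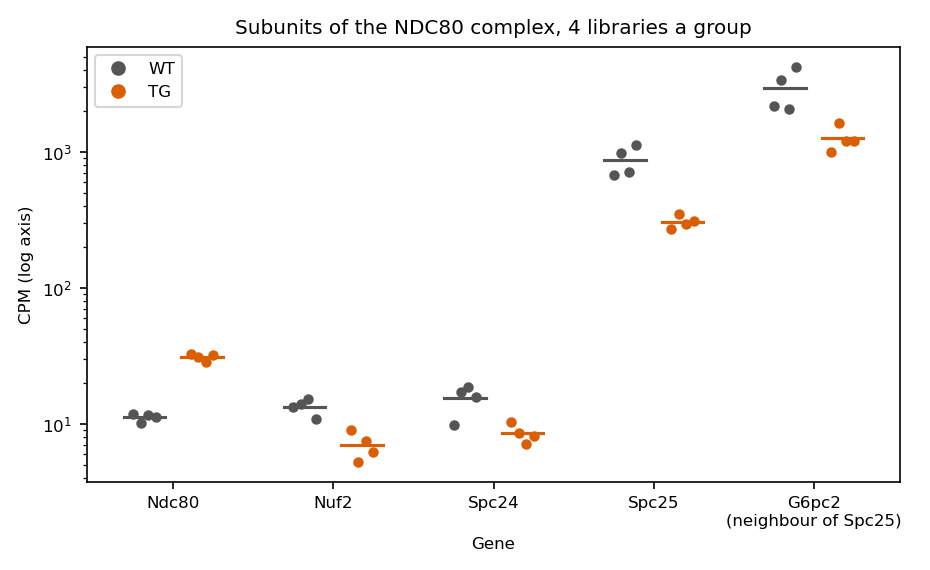
CPM on a log axis of the 4 genes of the NDC80 complex and of G6pc2, the neighbour of Spc25, with a point for each library, WT in grey and TG in orange, and a line at each group mean. Ndc80 lies higher in all 4 TG libraries, Nuf2 and Spc25 lie lower in all 4, and Spc24 overlaps at WT replicate 1.

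In the passenger complex and the protein-degradation group 2 of 5 fell, with a median log2 fold change of −0.86. Cdca3, which triggers destruction of the mitosis inhibitor WEE1, measured 3.46, 4.89, 4.15 and 3.76 CPM in TG and 6.96, 10.2, 10.6 and 8.43 CPM in WT. It was 2.22 times lower without overlap (−1.15, standard error 0.204, adjusted p = 0.00103, edgeR). Birc5, or survivin, the passenger subunit that binds centromeres, averaged 3.92 ± 0.698 CPM and 7.11 ± 1.18 CPM (−0.86, adjusted p = 0.0104, edgeR). Cdca8, or borealin, measured 3.67, 2.80, 4.55 and 3.48 CPM in TG and 5.75, 6.17, 6.85 and 4.15 CPM in WT (−0.66, adjusted p = 0.0586, edgeR). It missed the threshold with a single crossing of TG replicate 3 and WT replicate 4, and passed without either (−0.83, adjusted p = 0.0459, and −0.79, adjusted p = 0.033, edgeR). With all libraries, Cdca8 was also called lower with upper-quartile scaling and in DESeq2. Cdc20, the activator of the anaphase-promoting complex, measured 5.61, 3.42, 2.47 and 3.30 CPM in TG and 3.43, 7.09, 8.56 and 5.01 CPM in WT (−0.71, adjusted p = 0.124, edgeR). Replicate 1 of each group lay among the libraries of the other group, and Cdc20 passed without TG replicate 1 (−0.97, adjusted p = 0.0439) or WT replicate 1 (−0.91, adjusted p = 0.0474). With all libraries and no filter on low counts, Cdc20 was also called lower. Ube2c, the ubiquitin-conjugating enzyme of that complex, measured 1.62, 2.09, 1.37 and 0.570 CPM in TG and 2.37, 2.26, 4.63 and 1.65 CPM in WT (−0.94, adjusted p = 0.124, edgeR), also with overlap.

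All 4 genes of microtubule-binding spindle proteins fell, with a median log2 fold change of −0.93. Hmmr, which helps to build spindle poles, measured 9.93, 9.96, 10.2 and 7.12 CPM in TG and 21.8, 25.8, 28.9 and 18.2 CPM in WT (−1.34, standard error 0.167, adjusted p = 5.68e-05, edgeR). Prc1, which bundles microtubules in the midzone, measured 13.7, 11.6, 14.6 and 13.4 CPM in TG and 18.7, 24.96, 27.6 and 24.6 CPM in WT (−0.85, standard error 0.140, adjusted p = 0.000616, edgeR). Both had every TG library below every WT library, Hmmr with the wider gap. Nusap1, a microtubule bundler near chromosomes, had the smallest change of the group, at 9.34, 8.31, 10.1 and 10.5 CPM in TG and 11.6, 17.0, 16.4 and 14.2 CPM in WT (−0.63, adjusted p = 0.0111, edgeR). Its groups still did not overlap. Tpx2, the activator of Aurora A, averaged 11.5 ± 1.83 CPM and 23.0 ± 5.94 CPM (−1.01, adjusted p = 0.0012, edgeR).

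All 3 genes of cytokinesis fell. Ect2, the exchange factor that switches on RhoA at the cell's equator, measured 4.80, 4.76, 5.92 and 3.76 CPM in TG and 8.89, 10.2, 12.96 and 8.49 CPM in WT (−1.07, standard error 0.202, adjusted p = 0.0016, edgeR). Racgap1, the partner that recruits it to the central spindle, averaged 7.38 ± 1.22 CPM and 13.3 ± 3.36 CPM (−0.84, adjusted p = 0.00744, edgeR). Anln, or anillin, the scaffold of the contractile ring, measured 13.1, 12.2, 12.7 and 9.74 CPM in TG and 13.9, 15.0, 22.9 and 16.1 CPM in WT. The groups of Anln did not overlap but came close, and its change was the smallest of all called members (−0.51, adjusted p = 0.0476, edgeR). Leaving out any TG library or WT replicate 2, 3 or 4 lost its call, as did a filter of 1 CPM in 4 libraries (−0.49, adjusted p = 0.0509, edgeR) and limma-voom (−0.48, adjusted p = 0.0561). The value came nearest 0 without WT replicate 3 (−0.33, adjusted p = 0.159, edgeR), the other 6 omissions giving −0.57 to −0.45 and adjusted p between 0.059 and 0.0823.

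Of the transcription factors that switch on these genes, Foxm1 fell and Mybl2 did not pass. Foxm1 measured 2.699, 2.67, 2.25 and 0.741 CPM in TG and 3.38, 5.20, 7.17 and 4.70 CPM in WT (−1.28, standard error 0.350, adjusted p = 0.0177, edgeR), with every TG library below every WT library. Without WT replicate 3 its call was lost, with an adjusted p that rounds to the threshold of 0.05 (−1.08, edgeR). Mybl2, which encodes B-MYB, measured 1.998, 1.07, 1.46 and 0.513 CPM in TG and 1.498, 1.98, 1.43 and 3.30 CPM in WT (−0.69, adjusted p = 0.293, edgeR), and the groups overlapped.

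Among the 36 genes, 7 have exons that overlap exons of a gene on the opposite strand in the earlier annotation, and no source used here states whether reads were counted by strand. They are Ccna2 with Exosc9, Kif20a with Cdc23, Cdca8 with 9930104L06Rik, Cdc20 with Elovl1, Ube2c with Tnnc2, Prc1 with Rccd1 and Nusap1 with Oip5. Reads of the shared stretches cannot be told apart without strand, so these 7 are less certain. Rccd1 was lower in TG as well (−0.42, adjusted p = 0.0236, edgeR). Exosc9 (−0.32, adjusted p = 0.0557), Cdc23 (−0.07, 0.725), 9930104L06Rik (−0.20, 0.307), Elovl1 (−0.03, 0.931) and Oip5 (0.26, 0.807) did not pass in edgeR. Oip5 was at 0.711 CPM in TG and 0.591 CPM in WT, and Tnnc2, not tested, at 0.0111 and 0 CPM. On its own strand, Foxm1 shares exon stretches with Tex52 (0.114 and 0.0651 CPM) and Gm44596 (0 CPM in both groups).

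Every TG library lay below every WT library in the summed level of the set. With Spc25 and Ndc80 set aside, the other 34 genes summed to 379, 305, 349 and 306 CPM in TG and 645, 755, 851 and 573 CPM in WT. The median of their ratios to the WT mean was 0.586, 0.520, 0.557 and 0.436 in TG and 0.873, 1.05, 1.22 and 0.8285 in WT. The TG libraries lay closer together than the WT libraries on both measures. WT replicate 3 had the highest WT value in 27 of the 36 genes, and WT replicates 1 and 4 the lowest in 16 and 15. WT replicate 3 also had the highest endothelial and stromal sums among WT libraries, at 872 and 2798 CPM, and the part of these cells in its mitotic level was not tested. Left out, WT replicate 3 brought the number called lower to 19, the fewest of any single omission. Omitting any other library left 20 to 24. The number of all genes called lower also varied between omissions, and its part in these counts was not tested.

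A fit with the mean level of the 20 vascular and stromal markers as a further term changed this count most. It called 12 of the 36 lower, where 1.01% of all genes were called lower, and Ndc80 higher (1.34, adjusted p = 0.0119, edgeR), where 0.639% were. The median log2 fold change of the 36 was then −1.39, further from 0 than without the term. The standard errors of all genes were 2.14 times as large as without it at the median. Because the markers separate the groups, the term and the group overlap, and how much variation they share was not computed. Cdk1, Ccna2, Bub1, Kif11, Cenpe, Cenpf, Tpx2, Hmmr, Anln, Ect2, Mki67 (−1.72, adjusted p = 0.000239, edgeR) and Top2a (−1.96, adjusted p = 0.000351, edgeR) were still called lower. Spc25 moved to −0.81 (adjusted p = 0.121, edgeR) and Nuf2 to −1.41 (adjusted p = 0.063, edgeR), neither called.

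The promoters of the set share elements that are known to time transcription to late cell cycle, and a stretch of 6 of them is shown for these elements. The cell cycle genes homology region, or CHR, is the site where MuvB binds, and the CCAAT box binds NF-Y. RefSeq promoter windows of GRCm38.p6, from 250 bases before to 50 after a start, were found for 31 of the 36 genes in 33 windows. In 28 of the 33, a stretch after the start matched a GENCODE M21 transcript of the gene, and the start is less certain in the rest. The 120 bases before the start are printed 5′ to 3′ for the members with a CHR match there and the lowest adjusted p, with CHR matches (TTTGAA or TTCGAA) and CCAAT boxes in capitals on either strand, so that TTCAAA and ATTGG are the reverse forms. Ndc80 was added for contrast after its value was seen.
Mki67: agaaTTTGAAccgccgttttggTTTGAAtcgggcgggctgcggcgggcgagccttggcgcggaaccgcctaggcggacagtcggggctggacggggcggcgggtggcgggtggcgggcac
Top2a: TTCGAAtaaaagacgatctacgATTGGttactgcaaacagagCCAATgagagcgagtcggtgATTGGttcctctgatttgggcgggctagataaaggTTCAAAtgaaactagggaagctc
Kif11: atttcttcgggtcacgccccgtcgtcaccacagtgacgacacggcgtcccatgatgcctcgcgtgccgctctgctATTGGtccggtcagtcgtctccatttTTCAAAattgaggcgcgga
Prc1: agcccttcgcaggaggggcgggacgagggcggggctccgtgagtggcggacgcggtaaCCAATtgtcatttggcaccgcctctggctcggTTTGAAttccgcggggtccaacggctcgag
Ect2: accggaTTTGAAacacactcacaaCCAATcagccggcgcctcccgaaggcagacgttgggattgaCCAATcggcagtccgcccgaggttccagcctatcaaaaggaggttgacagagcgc
Cdk1: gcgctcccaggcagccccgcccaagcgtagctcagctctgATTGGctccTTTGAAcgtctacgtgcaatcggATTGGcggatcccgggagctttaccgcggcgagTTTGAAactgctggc
Ndc80: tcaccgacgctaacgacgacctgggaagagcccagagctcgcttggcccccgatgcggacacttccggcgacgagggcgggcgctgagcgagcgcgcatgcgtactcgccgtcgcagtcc
The stretches are, in GRCm38.p6, Mki67 chr7:135716380-135716499 (minus strand), Top2a chr11:99024190-99024309 (minus strand), Kif11 chr19:37376262-37376381 (plus strand), Prc1 chr7:80294356-80294475 (plus strand), Ect2 chr3:27153879-27153998 (minus strand), Cdk1 chr10:69352913-69353032 (minus strand) and Ndc80 chr17:71526858-71526977 (minus strand). Ndc80 has no capitals, since neither element lies in that stretch. The other stretches were chosen for a CHR match, so this contrast follows from the choice of genes.

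A CHR match was present in 27 of the 33 windows (81.8%), beside 19.2% of the 32851 windows of all genes and 14.9% of those of tested genes. A CCAAT box was present in 26 (78.8%), beside 37.4% and 37.1%, and both in 24 (72.7%), beside 7.52% and 5.89%. An E2F site (TTCCCGC or TTGGCGC, the second of which can share letters with the reversed CCAAT) was present in 5 (15.2%), beside 6.81% of all windows and 10.4% of the 17133 windows of tested genes. The composite element of ATF4 (TGATGNAA, chosen after the expression values were seen) was present in 1 window, that of Kif2c (3.03%, beside 3.97% of all windows and 2.67% of those of tested genes). All were searched on both strands, and matches describe letters, not binding. The 25 genes with a CHR match had a median log2 fold change of −0.85 and the 6 without it −0.89. The 24 genes with a CCAAT box had a median of −0.97 and the 7 without it −0.63, and neither difference was tested. Ndc80 has a CHR match just after its start, at base 30, and no CCAAT box in the window. The same holds for Anln, which was called lower, with CHR matches at bases 22 and 29 only and no CCAAT box.

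**Figure D4:**
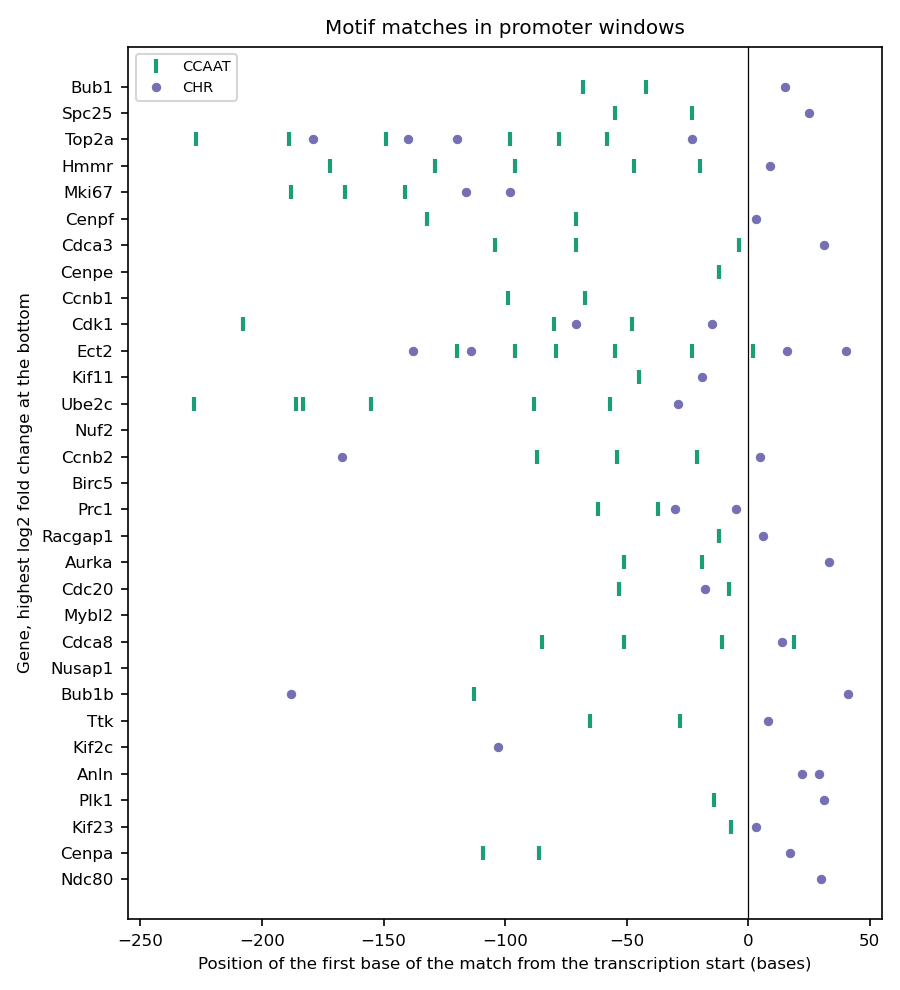
Place of CHR and CCAAT matches in bases from the start for each gene with a RefSeq promoter window, the genes ordered by log2 fold change with Bub1 at the top and Ndc80 at the bottom, and both windows of a gene drawn on its line. CCAAT matches lie mostly before the start and CHR matches around it.

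Other mitosis genes, 109 tested from a list of 110 that excludes the 36, included many that fell. Of these, 39 were called lower, or fell, and 1 rose, beside 8.06% and 12.1% of all genes, with a median log2 fold change of −0.49, and 93 had a lower mean in TG. By role, 12 of 20 motor and spindle genes fell (median −0.79), 4 of 9 cytokinesis genes (−0.92), 8 of 36 kinetochore and checkpoint genes (−0.40), 9 of 26 genes of entry and exit (−0.32) and 6 of 18 of condensin and cohesion (−0.18). Pbk, a mitotic kinase, fell most clearly, from 16.6 ± 2.43 CPM in WT to 4.51 ± 0.644 CPM in TG (−1.87, standard error 0.173, adjusted p = 2.94e-06, edgeR). Nek2, a centrosome kinase (−1.40, adjusted p = 0.000542), Spag5, or astrin, of the spindle (−1.39, adjusted p = 0.000163), Ckap2, which binds microtubules (−1.23, adjusted p = 0.00074), and Ncapg2, a condensin II subunit (−0.85, adjusted p = 0.000255), also fell in edgeR. Kntc1 (−0.97, adjusted p = 0.00124) and Knl1 (−0.92, adjusted p = 0.00176), both kinetochore proteins, fell as well. Pds5a, which regulates cohesin, was the 1 gene called higher (0.36, adjusted p = 0.00493, edgeR). With the vascular and stromal term, 5 of the 109 were called lower and 0 higher, beside 1.01% and 0.639% of all genes in that fit. Pbk, Spag5, Ckap2 and Ncapg2 were among the 5, while Nek2 (−1.66, adjusted p = 0.0798), Kntc1 (−1.32, 0.069), Knl1 (−1.18, 0.144) and Pds5a (0.41, 0.428) were not called in that edgeR fit.

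Few genes of DNA replication, the step before mitosis, were called. Of 30 tested, 3 fell and 1 rose, beside 8.06% lower and 12.1% higher over all genes. Their median log2 fold change was −0.25, close to the lower quartile of all genes, and 24 had a lower mean in TG. Cdc6, which loads the replicative helicase, fell from 5.12 ± 0.501 to 2.42 ± 0.710 CPM (−1.09, adjusted p = 0.00826, edgeR). Ccne2, a cyclin of the start of S phase (−0.54, adjusted p = 0.0314), and Rrm1, a subunit of ribonucleotide reductase (−0.27, adjusted p = 0.0431), fell less, and Gins4, of the helicase complex, rose (0.33, adjusted p = 0.0499, edgeR). The calls of Rrm1 and Gins4 were lost in 8 and 7 of the 8 fits that leave out 1 library and that of Ccne2 in 5, with adjusted p up to 0.103, 0.201 and 0.0817. With the vascular and stromal term 0 replication genes were called, Cdc6 standing at −1.33 (adjusted p = 0.344, edgeR). Of all genes, 1.01% were lower and 0.639% higher in that fit. The median ratio to the WT mean over the replication genes was 0.961, 0.678, 0.834 and 0.921 in TG and 1.01, 0.970, 1.07 and 0.929 in WT. TG replicate 1 was above WT replicate 4 here, and the difference between the 2 lists was not tested.

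Of 18 tested cyclins and brakes of G1, 5 were lower (27.8%) and 2 higher (11.1%) in TG, with a median of −0.12. Over all genes 8.06% were lower and 12.1% higher, so the share called higher was near that of all genes. Cdkn2c, which encodes the CDK4 and CDK6 inhibitor p18, fell from 28.1 ± 6.49 to 13.03 ± 0.664 CPM (−1.11, adjusted p = 0.000126, edgeR). Cdkn1c, the inhibitor p57, rose from 3.05 ± 0.469 to 7.62 ± 2.71 CPM (1.32, adjusted p = 0.00182, edgeR), and Ccnd3, a D-type cyclin, rose from 12.9 ± 2.45 to 21.2 ± 1.37 CPM (0.71, adjusted p = 0.00267, edgeR). Cdk4, the kinase that D-type cyclins switch on, fell slightly (−0.31, adjusted p = 0.0112, edgeR). With the vascular and stromal term, Cdkn2c was still called lower (−1.62, adjusted p = 0.00231, edgeR). Cdkn1c (0.89, adjusted p = 0.665), Ccnd3 (0.36, 0.736) and Cdk4 (−0.26, 0.661) were not called in that edgeR fit. Of the list 1 gene was lower and 0 higher there, beside 1.01% and 0.639% of all genes.

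**Figure D5:**
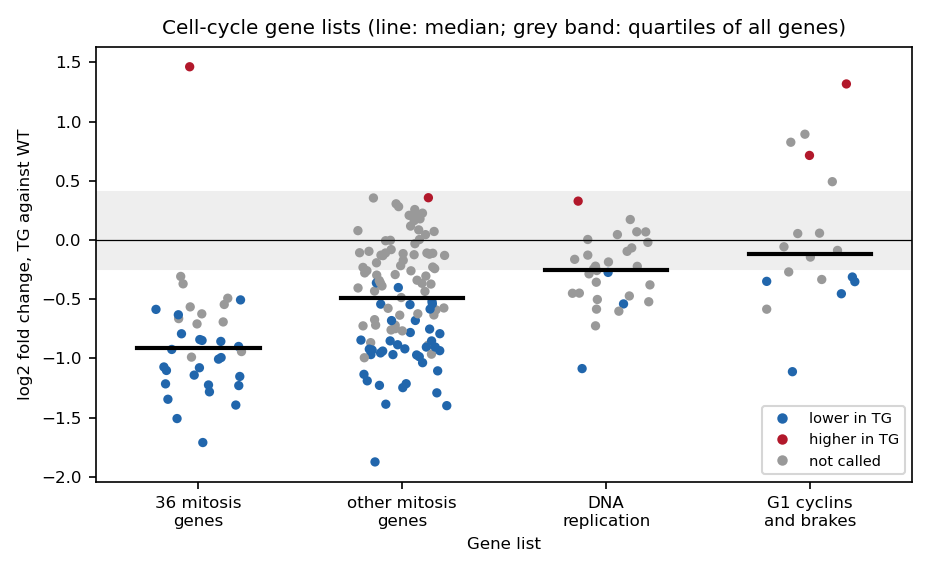
Log2 fold change (TG minus WT) of each tested gene of the 36 mitosis genes, the other mitosis genes, the DNA replication genes and the G1 cyclins and brakes, blue for called lower, red for called higher and grey for not called, with a line at each median and a grey band between the quartiles of all genes. The medians are −0.91, −0.49, −0.25 and −0.12.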

How the data were processed

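RNA of islets was measured in 8 libraries, each with a table of whole-number read counts per Ensembl mouse gene, deposited by the authors without normalization. The submitters' processing notes list STAR 2.7.10a, HTSeq 0.11.3 and mm39. No source used here says how strand was handled in counting. The 5 closing entries of each table entered neither library sizes nor tests. Reads outside genes were 25.3% to 31.5% of a table, ambiguous reads 3.74% to 4.36%, and the other 3 entries were 0. Groups and replicate numbers came from the sample titles.

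The members and all gene lists were chosen with earlier results of these data known. Symbols were found for 52081 of 55414 identifiers, and 267 of 268 list symbols matched. Genes were filtered with filterByExpr at a minimum count of 10, scaled by TMM and compared by the two-sided robust quasi-likelihood test of edgeR 4.0.16 (R 4.3.3). The model held group alone, with Benjamini-Hochberg adjustment over 20509 genes at a threshold of 0.05. CPM use effective library sizes, errors are SD over 4 libraries, and standard errors and fold changes in parentheses are on the log2 scale. Each standard error was derived from the test, as the absolute log2 fold change over the square root of the F statistic. CPM per kilobase use exon lengths of GENCODE M21 (GRCm38), an earlier build than that of the counts, so no gene coordinates are given, and the promoter windows are those of RefSeq, GRCm38.p6. In data simulated for TG against WT over 20509 genes, changes of 1.5-fold were recovered in 23.4% of cases, of 2-fold in 55.4% and of 4-fold in 77.4%, and 6.98% of calls were false. The simulation changed only a small share of genes, drawn at random over all levels, whereas 20.1% were called here. These rates need not hold for this fit. The 17 alternatives were other scalings and filters, DESeq2 1.42.0, limma-voom (limma 3.58.1), a replicate block, an acinar and a vascular and stromal term, and the omission of each library.

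Values in every library are given for Mki67, Top2a, the member of each role with the lowest adjusted p, the highest mean and the fold change nearest 0, and every member not called, with Nuf2 added after its value was seen. Of the companion lists, genes named are among the 4 with the lowest adjusted p. Counts are not molecules, since no molecular identifiers are recorded in the labels, and the level of 3 counts covers counting error only. Within groups, every pair of libraries differed by more than sampling noise (chi-square per gene 16.9 to 56.7).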

Additional observations from a re-analysis of the deposited data

Results flagged for a closer look

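In 6 of 72 groups of 4 libraries (36 genes in TG and in WT), 1 library stood off from the other 3 by a share of the group's range above Dixon's critical value, where chance gives about 1 in 20. Kif2c in WT replicate 3 was at 6.90 CPM against 3.41 to 3.57 CPM (share of the range 0.952), and Aurkb in WT replicate 3 was at 7.08 CPM against 2.27 to 3.09 CPM (0.831). Bub1 in TG replicate 4 was at 2.79 CPM against 1.84 to 1.91 CPM (0.921), and Kif20a in TG replicate 4 at 8.32 CPM against 5.67 to 6.05 CPM (0.858). Hmmr was low in TG replicate 4, at 7.12 CPM against 9.93 to 10.2 CPM (0.901), and Aurka low in TG replicate 3, at 2.83 CPM against 4.67 to 5.02 CPM (0.841). The fall of Bub1 and Hmmr was called with and without TG replicate 4.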

How the results depend on the processing

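Of the 25 members called, 12 were called under all 17 alternatives and 20 under all but the fit with the vascular and stromal term. Of the 11 not called, 4 were called under at least 1 and 7 under none. With the vascular and stromal term, the calls were 12 members lower, 207 of all genes lower and 131 higher, 5 other mitosis genes lower and 0 higher, 0 replication genes in either direction, and 1 gene of G1 lower and 0 higher. Plk1 reversed there, to 1.57 (adjusted p = 0.525, edgeR). With the acinar term, the calls of 34 members were the same, Ccnb2 lost its call and Kif20a was called lower. Higher calls among other mitosis genes were 3 with a filter of 1 CPM in 4 libraries, 2 with the replicate block and 2 in DESeq2. Replication genes were called lower 5 times with upper-quartile scaling, the replicate block and limma-voom and 6 times with no filter and in DESeq2, and higher 0 times with median-of-ratios or upper-quartile scaling, no filter and the acinar term. With the replicate block, 4 G1 genes were higher, and the members' calls were 24 lower and 1 higher, with no call changed. Same-numbered libraries had correlations of −0.0304, 0.0812, 0.0193 and 0.00794 in their deviations from the group means, so the numbers were not taken as pairs.

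With 1 library left out, 1691 to 2622 of all genes were higher and 1122 to 2131 lower, 19 to 24 members lower and 1 higher in each, 30 to 41 other mitosis genes lower and 1 to 2 higher, 1 to 5 replication genes lower and 0 to 1 higher, and 3 to 5 G1 genes lower and 2 to 3 higher. No filter moved the median of all genes by 0.11. The lowest library held 5 reads of Aurkb, 9 of Mybl2, 10 of Ube2c and 13 of Plk1, and the part of these low counts in the missed calls was not tested.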
